A study of Homo sapiens with 6 samples.

Results

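The genes described here encode enzymes of drug and steroid metabolism from 4 gene families, the cytochromes P450 (CYP), the UDP-glucuronosyltransferases (UGT), the glutathione S-transferases (GST) and the sulfotransferases (SULT). Members were taken by symbol, as every entry of the deposited tables with a CYP, UGT, GST or SULT family name followed by subfamily and gene number, less CYP1A1, CYP1B1, CYP24A1, CYP26A1 and CYP51A1. Of the 53826 entries, 102 had such a symbol, and 46 of these were above the floor of the tables in at least 1 of the 6 libraries (17 CYP, 14 UGT, 10 GST and 5 SULT genes). The other 56 were listed at the floor in all 6 libraries.

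The study compared 2 stable lines, A549-TIPARP and A549-GFP, by RNA-seq of 3 libraries each. A549 was established from a human lung adenocarcinoma, and both lines were made by stable retroviral transduction with the pMXs vector, which carried TIPARP in one line and GFP in the other. No repeat transductions are described for either line, so a difference between the lines cannot be told apart from a difference between these transductions. The titles number the libraries by experiment, nothing states that the experiments were separate cultures, and p-values below measure the spread between these libraries, which may be technical.

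Cytochromes P450 oxidise drugs, fatty acids, sterols and vitamins, using electrons passed on by POR or, in mitochondria, by ferredoxin. The other 3 families join the substrate to a polar group: UGTs add glucuronic acid, GSTs glutathione and SULTs a sulfate, which makes most products easier to excrete. Many of the genes are regulated by ligand-sensing factors, among them AHR, which TIPARP, a mono-ADP-ribosyltransferase, is known to restrain.

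Values are given as TPM, a gene's part of all transcripts of its library, scaled to a fixed total and corrected for transcript length. The deposited tables hold log2 TPM, in which every TPM below 1 had been set to 1, so a gene listed at 1 TPM is at the floor and may be absent or low. TPM keeps no read number, and the depth of the libraries is unknown. In sums over genes, here and below, entries at the floor count as 0. A difference is the mean deposited log2 TPM of the A549-TIPARP libraries minus that of the A549-GFP libraries, and a 2-fold difference is one over 1 in size on that scale. Genes with more than 2 TPM in at least 1 library were tested with limma on log2(TPM + 1), which made 13181 genes, 39 of them members. A member that passed this limit only through the line in which it was high was favored in advance to differ in that direction. Counts over the tested members therefore describe them and support nothing further. The 7 members above the floor but not tested were UGT2B28, CYP4F2, CYP3A7, CYP27C1, UGT2B11, UGT2B10 and GSTM3, with a highest TPM between 1.05 and 1.86, and the tested members nearest to the limit were GSTM2 at 2.16 and CYP2B6 at 2.33.

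TIPARP itself, in values that do not separate the transgene from the cells' own gene, was 4.11 higher on the log2 scale in A549-TIPARP cells (limma adjusted p = 0.0125). This p was over 0.05 when any 1 library other than A549-GFP replicate 2 was left out. It was also over 0.05 when every gene above the floor in at least 1 library was tested, or with replicate number as a block in the model (limma adjusted p = 0.513). A549-GFP replicate 2 stood apart from the other libraries. Its deviation from the mean of its line, as a root mean square, was 0.621 on the log2 scale over all tested genes and 0.870 over the tested members, against 0.185 to 0.400 and 0.176 to 0.581 in the other 5 libraries. The 4 epithelial markers summed to 8338 TPM in that library and to between 16509 and 21239 in the others, through KRT8 and KRT18. Of the same list, CDH1 was highest in that library, at 142 TPM against 61.0 to 114, and EPCAM, at 166 TPM, lay within the 126 to 221 of the others. All 5 markers of alveolar type II cells and all 3 of endothelial cells were at the floor in every library, as were PTPRC and CD3E of leukocytes and 3 of 4 fibroblast markers. Of 5 hepatocyte markers, CYP3A4 and CYP2E1 were at the floor throughout, and the members of the list above the floor summed to between 1.04 and 4.82 TPM. The part of these shifts in the results below was not tested, and values without A549-GFP replicate 2 are given where they turn a direction or move a difference strongly.

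The enzymes present were led by the GST family. GSTP1, the main glutathione transferase of many tumor cell lines, took between 81.7% and 87.0% of the summed TPM of all GST members, and the GST members took between 81.5% and 90.7% of the TPM of all members. Together the members made up between 0.304% and 0.369% of the TPM of a library. GSTP1, GSTK1 and GSTO1 were the 3 members with a mean over 100 TPM, and 24 of the 46 had a mean under 3 TPM. There were 27 members above the floor in all 6 libraries and 6 in a single library, 4 of these in A549-GFP replicate 2 and 2 in A549-TIPARP replicate 3. Members above the floor numbered 37, 43 and 36 in A549-GFP replicates 1, 2 and 3 and 37, 29 and 42 in A549-TIPARP replicates 1, 2 and 3. Many drug-metabolising enzymes known from liver were not among them: CYP1A2, CYP2C8, CYP2C19, CYP2E1, CYP3A4, UGT2B4, GSTA1 and SULT2A1 were listed at the floor throughout. The same held for the sterol enzymes CYP7A1 and CYP27A1 and for the steroid hormone enzymes CYP11A1, CYP17A1 and CYP19A1.

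**Figure D1:**
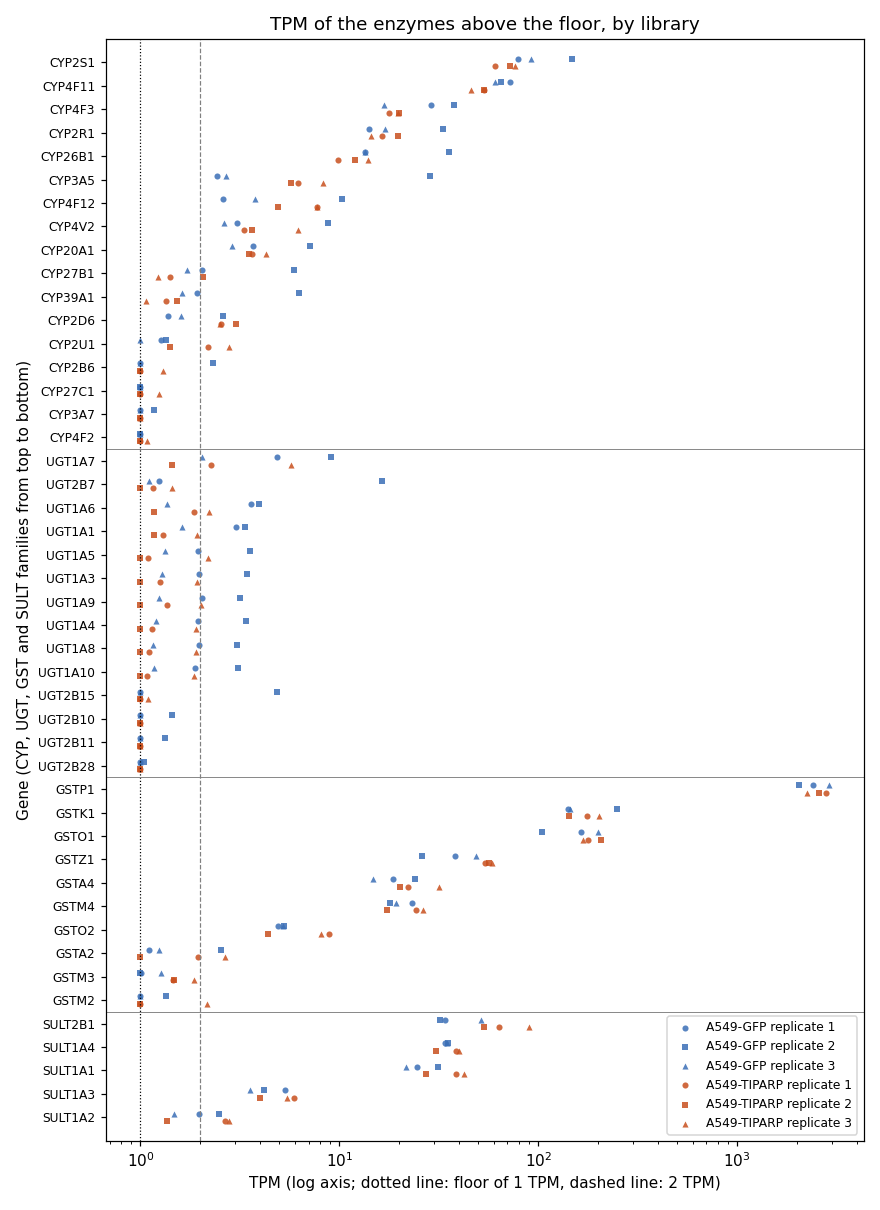
TPM (log axis) of the 46 members above the floor in each of the 6 libraries, blue for A549-GFP and orange for A549-TIPARP, with the floor of 1 TPM as a dotted line and the limit of 2 TPM for testing as a dashed line. GSTP1 lies between 2044 and 2902 TPM. The square of A549-GFP replicate 2 lies highest of the 6 libraries for 23 of the 39 tested members, some of which passed the limit through that library alone.

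No member differed between the lines by more than the spread of the libraries once p-values were adjusted over all tested genes. None of the 39 tested members was past 2-fold higher in A549-TIPARP cells, against 1.53% of all tested genes. UGT2B7 and CYP39A1 were past 2-fold lower, 2 of 39 against 0.432% of all tested genes. No member had a limma adjusted p under 0.05 (Benjamini-Hochberg over the 13181 genes), a level that 0.0152% of all tested genes reached, and the adjusted p of the members was 0.966 or more. Before adjustment, SULT2B1 and GSTZ1 had a p under 0.05, 2 of 39 members against 3.85% of all tested genes. All 3 A549-TIPARP libraries were above all 3 A549-GFP libraries for CYP2U1, GSTZ1 and SULT2B1 among the tested members (3 of 39, against 5.36% of all tested genes) and below them for CYP4F11, CYP2S1 and CYP39A1 (3 of 39, against 3.54%). In bulk RNA, fewer cells that express a gene and less of its RNA per cell cannot be told apart. The smallest p that an exact permutation test of 3 against 3 libraries allows is 0.1. The median difference of the tested members was -0.15, beside -0.07 for all tested genes, and 20 of the 39 were lower on average in A549-TIPARP cells, against 59.9% of all tested genes.

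The families differed in sign. In A549-TIPARP cells the mean was higher for all 9 tested GST genes and all 5 tested SULT genes. All 11 tested UGT genes had a lower one, and the 14 tested CYP genes divided into 5 higher and 9 lower. Of all tested genes, 59.9% had a lower mean. The median differences were 0.23 for GST, 0.23 for SULT, -0.65 for UGT and -0.27 for CYP. The counts by family were the same after libraries were rescaled by their median ratio to an average library. Without A549-GFP replicate 2 the genes with a higher mean numbered 8 of 9 for GST and 5 of 5 for SULT. They numbered 2 of 11 for UGT and 8 of 14 for CYP. Most CYP genes were then higher rather than lower, as CYP20A1, CYP2R1 and CYP2B6 changed sign. The medians were then 0.37 for GST, 0.33 for SULT, -0.23 for UGT and 0.12 for CYP. No test was made over a family, since its genes share libraries and, in part, sequence. UGT1A1, UGT1A3, UGT1A4, UGT1A8, UGT1A10, UGT2B7, UGT2B15, CYP2B6 and CYP39A1 passed the limit for testing through A549-GFP libraries alone. GSTM2 and CYP2U1 passed it through A549-TIPARP libraries alone, so the limit favored the sign that each of these genes showed.

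**Figure D2:**
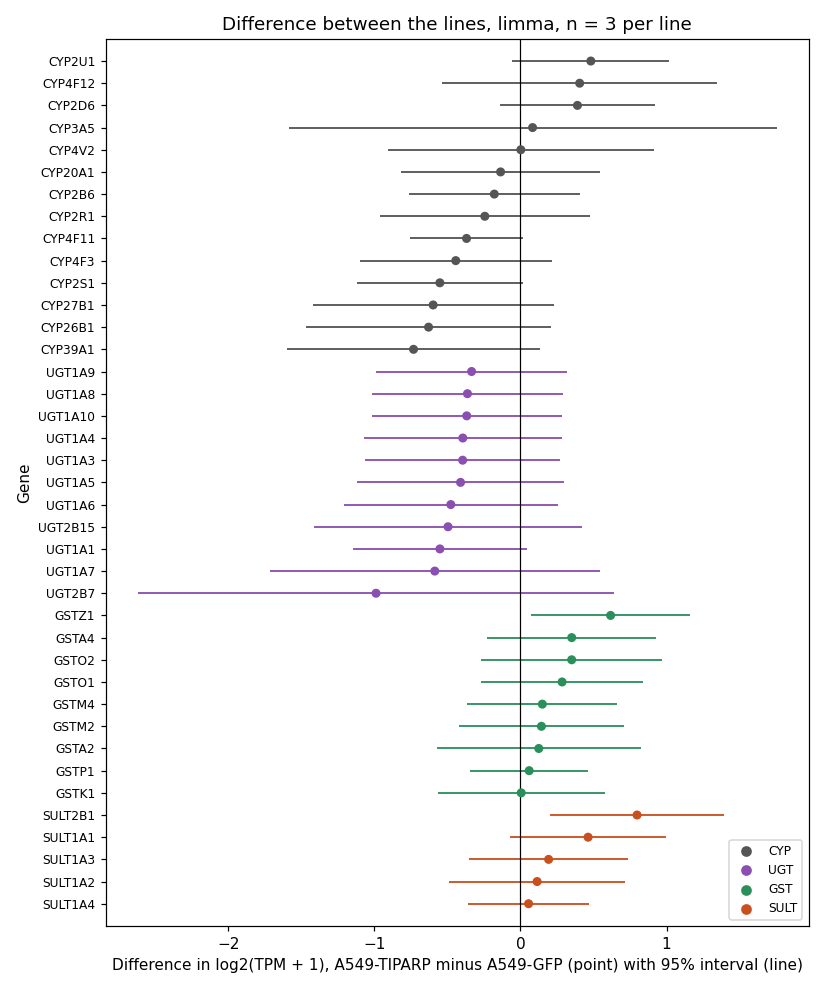
Difference between the lines on the log2(TPM + 1) scale for the 39 tested members, as the limma estimate (point) with its 95% interval (line), ordered within the CYP, UGT, GST and SULT families. The intervals of SULT2B1 (0.21 to 1.39) and GSTZ1 (0.07 to 1.16) lie above 0, and those of the other members include 0.

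SULT2B1 adds sulfate to cholesterol and related hydroxysteroids and lies on chromosome 19 at chr19:48552172-48599425 on the plus strand (hg38, GENCODE 44). Its TPM was 33.9, 32.0 and 51.5 in A549-GFP replicates 1, 2 and 3 and 63.3, 53.6 and 89.7 in A549-TIPARP replicates 1, 2 and 3. All A549-TIPARP libraries were above all A549-GFP libraries, the closest being A549-TIPARP replicate 2 and A549-GFP replicate 3. The mean log2 TPM was 5.26 ± 0.37 (SD, n = 3) in A549-GFP cells and 6.07 ± 0.38 (SD, n = 3) in A549-TIPARP cells, a 1.76-fold difference. On the log2(TPM + 1) scale the difference was 0.80 with a standard error of 0.26 and a 95% interval of 0.21 to 1.39 (limma, Benjamini-Hochberg adjusted p = 0.966). With A549-GFP replicate 2 left out, the difference of the deposited values was 0.69, and the unadjusted p then no longer lay under 0.05.

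The remaining SULT genes are copies of 1 gene on chromosome 16. SULT1A1 and SULT1A2 act on small phenols, and SULT1A3 and SULT1A4 prefer dopamine and other catecholamines. The coding sequences of SULT1A3 and SULT1A4 in GENCODE 44 were identical over all 885 bases, and SULT1A1 shared 96.84% with SULT1A2 and 94.46% with SULT1A3. A window of 90 coding bases, from position 188 to 277 counted from the start codon, shows where the entries can be told apart and where they cannot. It was chosen as the window of this length where SULT1A1 and SULT1A4 differ most. It holds 16 of the 49 bases that differ between them, so the rest is more alike. Capitals mark the bases that differ from SULT1A1, 3 in SULT1A2 and 16 each in SULT1A3 and SULT1A4.
SULT1A1: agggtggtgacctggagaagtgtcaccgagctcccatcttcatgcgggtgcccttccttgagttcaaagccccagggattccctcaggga
SULT1A2: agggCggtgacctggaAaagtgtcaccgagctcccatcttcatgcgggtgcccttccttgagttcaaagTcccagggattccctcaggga
SULT1A3: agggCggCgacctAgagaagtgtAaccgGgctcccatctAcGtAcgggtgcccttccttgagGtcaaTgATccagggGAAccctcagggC
SULT1A4: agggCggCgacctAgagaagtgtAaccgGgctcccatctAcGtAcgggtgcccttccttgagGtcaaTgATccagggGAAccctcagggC

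Although the last 2 sequences are the same, the tables gave SULT1A4 between 6.38 and 9.84 times the TPM of SULT1A3 in each library. The 2 readthrough entries that contain them, SLX1B-SULT1A4 and SLX1A-SULT1A3, stood in a ratio of 11.2 to 14.7. How the authors' software placed reads that match several genes is not given in the sources used here, so values within the SULT1A group are uncertain. SULT1A4 was at 34.1, 35.0 and 34.9 TPM in replicates 1, 2 and 3 of A549-GFP and at 38.6, 30.5 and 39.8 in A549-TIPARP replicates 1, 2 and 3, with overlapping lines and a difference of 0.06. SULT1A1 was at 24.7, 31.3 and 21.5 TPM in the A549-GFP replicates and at 38.7, 27.3 and 42.4 in the A549-TIPARP replicates. Its lines overlapped through A549-TIPARP replicate 2, with a difference of 0.48, which was 0.62 without A549-GFP replicate 2, and a limma 95% interval that included 0 (limma adjusted p = 0.994). SULT1A3 ranged from 3.55 to 5.91 TPM with a difference of 0.23, and SULT1A2 from 1.35 to 2.78 TPM with a difference of 0.15, which was 0.33 without A549-GFP replicate 2. The summed TPM of the 5 SULT genes was 100.04, 105 and 113 in the A549-GFP replicates and 149, 117 and 180 in the A549-TIPARP replicates, without overlap and with a difference of 0.47 on the log2 scale.

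GSTZ1 was the only tested GST gene with an unadjusted p under 0.05. It encodes an isomerase of tyrosine breakdown that also dechlorinates small haloacids, and it lies on chromosome 14 at chr14:77320996-77331597 on the plus strand. Its TPM was 38.0, 26 and 48.9 in A549-GFP replicates 1, 2 and 3 and 54.0, 56.5 and 58.8 in A549-TIPARP replicates 1, 2 and 3. The A549-TIPARP libraries lay close together and above all A549-GFP libraries, of which replicate 2 was lowest. The mean log2 TPM was 5.19 ± 0.46 (SD, n = 3) in A549-GFP cells and 5.82 ± 0.06 (SD, n = 3) in A549-TIPARP cells, a 1.55-fold difference. The limma estimate was 0.62 with a standard error of 0.24 and a 95% interval of 0.07 to 1.16 (limma adjusted p = 0.994), and without A549-GFP replicate 2 the difference of the deposited values was 0.39. After rescaling of the libraries by their median ratio, its unadjusted p was over 0.05.

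The promoters of SULT2B1 and GSTZ1 are shown because they were the tested members with an unadjusted p under 0.05. Both also hold the core letters bound by AHR with its partner ARNT. Capitals mark GCGTG in the 300 bases from 250 before to 50 after the RefSeq start (GRCh38.p14), searched on both strands, at chr19:48551922-48552221 for SULT2B1 and chr14:77320786-77321085 for GSTZ1, both on the plus strand.
SULT2B1: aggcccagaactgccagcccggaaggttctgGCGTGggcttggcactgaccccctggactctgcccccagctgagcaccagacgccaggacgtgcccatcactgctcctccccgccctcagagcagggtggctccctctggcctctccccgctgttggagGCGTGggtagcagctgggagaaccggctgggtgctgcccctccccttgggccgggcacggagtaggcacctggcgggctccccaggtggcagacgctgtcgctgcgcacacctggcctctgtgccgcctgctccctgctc
GSTZ1: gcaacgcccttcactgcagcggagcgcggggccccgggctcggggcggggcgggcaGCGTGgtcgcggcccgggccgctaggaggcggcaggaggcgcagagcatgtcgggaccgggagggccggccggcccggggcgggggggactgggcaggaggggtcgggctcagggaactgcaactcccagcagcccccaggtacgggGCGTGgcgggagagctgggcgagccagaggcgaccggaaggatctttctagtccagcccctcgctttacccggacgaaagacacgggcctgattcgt

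Each window held 2 copies of GCGTG. Windows of this length were found in the RefSeq table for 39 of the 46 members, and 13 of them held GCGTG at least once, beside 36.5% of all 35116 promoters. Only CYP20A1, GSTZ1, SULT2B1 and UGT1A4 held 2 or more copies, 4 of 39 beside 12.7% of all promoters. The core of the antioxidant response element, TGACNNNGC on either strand, which NFE2L2 binds, was present in 9 of 39 beside 13.3% of all promoters. A match to letters is a description of the window and does not show that a factor was bound there.

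GSTP1 was at 2422 TPM in A549-GFP replicate 1, 2044 in replicate 2 and 2902 in replicate 3, and at 2790 in A549-TIPARP replicate 1, 2595 in replicate 2 and 2245 in replicate 3. The lines overlapped and their mean log2 values differed by 0.06, with a limma 95% interval of -0.34 to 0.46, and by -0.07 without A549-GFP replicate 2. GSTK1, a transferase of mitochondria and peroxisomes, was at 141, 249 and 145 TPM in the A549-GFP replicates and 177, 144 and 203 in the A549-TIPARP replicates. It overlapped likewise, with a difference of 0.01 and an interval of -0.57 to 0.58, and the difference was 0.27 without A549-GFP replicate 2. GSTO1, which reduces dehydroascorbate and methylated arsenic, was at 164, 104 and 199 TPM in the A549-GFP replicates and 177, 207 and 169 in the A549-TIPARP replicates. A549-GFP replicate 2 was lowest, and the difference of 0.29 was 0.02 without it. The summed GST TPM was 2814, 2474 and 3337 in the A549-GFP replicates and 3257, 3045 and 2748 in the A549-TIPARP replicates, an overlap with a difference of 0.08, which was -0.03 without A549-GFP replicate 2.

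The remaining GST genes were at lower levels. GSTM3, a mu class transferase that was not tested because it stayed under 2 TPM, was at 1.01, 1 and 1.27 TPM in the A549-GFP replicates and 1.46, 1.48 and 1.86 in the A549-TIPARP replicates. These did not overlap, at a difference of 0.55 close to the floor. When every gene above the floor in at least 1 library was tested, GSTM3 had an unadjusted limma p of 0.019 and an adjusted p of 0.871. GSTA4, which conjugates aldehydes from lipid peroxidation, ranged from 14.8 to 31.6 TPM with a difference of 0.37, GSTM4 from 17.3 to 26.4 with 0.16, and GSTO2 from 4.37 to 8.85 with 0.40. GSTA2 ranged from the floor to 2.67 TPM with a difference of 0.19 and GSTM2 from the floor to 2.16 with 0.23. Without A549-GFP replicate 2 the differences were 0.54 for GSTA4, 0.08 for GSTM4, 0.42 for GSTO2, 0.57 for GSTA2 and 0.37 for GSTM2, so that 3 of these exceeded the 0.39 of GSTZ1. Of all stretches of 50 bases in the transcript, 46.1% were shared with another gene for GSTM2, 22% for GSTA2 and 18.9% for GSTM4, so their values can hold reads of neighbours in the family.

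The UGT1A genes are 9 first exons on chromosome 2, each spliced to the same further exons. The junctions below show the end of each first exon in lower case and, in capitals, the start of the shared second exon (chr2:233767034-233767165, plus strand, hg38, GENCODE 44), which is where the transcripts become the same.
UGT1A1: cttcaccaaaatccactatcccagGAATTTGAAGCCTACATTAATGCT
UGT1A3: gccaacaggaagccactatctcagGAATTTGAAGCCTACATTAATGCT
UGT1A4: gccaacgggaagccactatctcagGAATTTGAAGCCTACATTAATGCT
UGT1A5: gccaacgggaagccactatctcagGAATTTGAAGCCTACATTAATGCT
UGT1A6: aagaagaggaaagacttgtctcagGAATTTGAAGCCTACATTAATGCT
UGT1A7: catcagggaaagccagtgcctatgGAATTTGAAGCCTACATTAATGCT
UGT1A8: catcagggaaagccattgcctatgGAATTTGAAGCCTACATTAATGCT
UGT1A9: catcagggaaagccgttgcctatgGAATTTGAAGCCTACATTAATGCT
UGT1A10: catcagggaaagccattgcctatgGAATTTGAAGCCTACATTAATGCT

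Between 60.2% and 62.6% of each transcript follows the first exon, and the first exons themselves fall into 2 alike groups, of UGT1A3, UGT1A4 and UGT1A5 and of UGT1A7, UGT1A8, UGT1A9 and UGT1A10, with UGT1A1 and UGT1A6 apart from both. Identity over the whole coding sequence was 96.32% to 96.82% within the first of these groups and 95.72% to 96.79% within the second. These values include the shared further exons, so the first exons alone are less alike than this. Across the 6 libraries the log2 values of the 9 entries correlated with each other with r between 0.856 and 0.999 over 36 pairs (median 0.97), a description over libraries and entries that share sequence. The 9 lower means in A549-TIPARP cells are therefore not 9 separate measurements.

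UGT1A1 conjugates bilirubin. Its TPM was 3.01, 3.35 and 1.63 in A549-GFP replicates 1, 2 and 3 and 1.30, 1.17 and 1.91 in A549-TIPARP replicates 1, 2 and 3. The lines overlapped through A549-GFP replicate 3 and A549-TIPARP replicate 3, with a difference of -0.83 (limma adjusted p = 0.994) and of -0.63 without A549-GFP replicate 2. UGT1A7, the highest of the group, was at 4.86, 9.13 and 2.04 TPM in the A549-GFP replicates and 2.26, 1.44 and 5.71 in the A549-TIPARP replicates, with a difference of -0.76. UGT1A6, which acts on small planar phenols and is known as an AHR target, ranged from 1.17 to 3.93 TPM with a difference of -0.67. The other 6 UGT1A genes ranged from the floor to 3.56 TPM, with differences from -0.65 to -0.52, and all 6 were at the floor in A549-TIPARP replicate 2. All 9 UGT1A genes were highest in A549-GFP replicate 2, and without that library their median difference was -0.25 in place of -0.62.

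**Figure D3:**
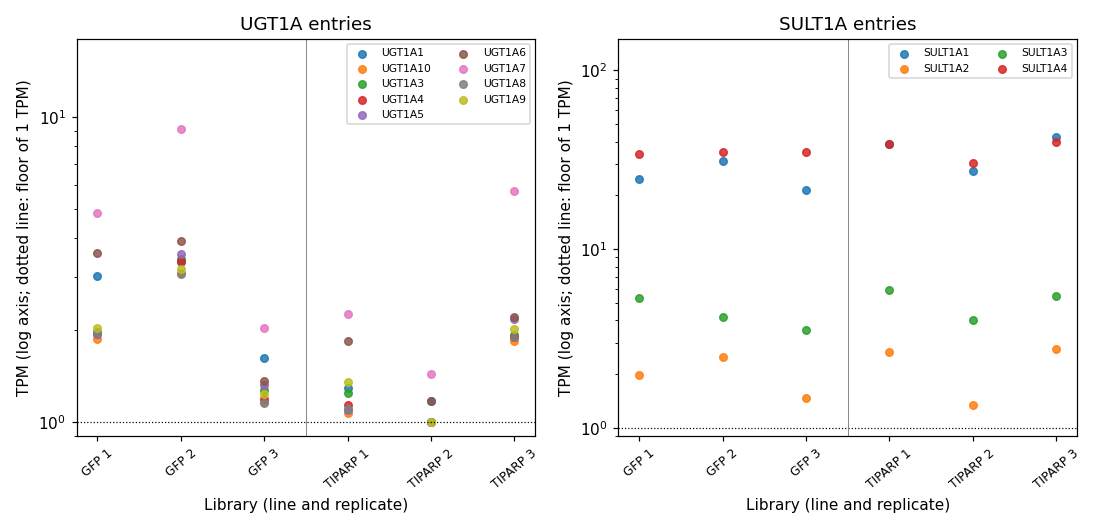
TPM (log axis, dotted line at the floor of 1 TPM) of the 9 UGT1A entries (left) and the 4 SULT1A entries (right) in each of the 6 libraries, with the A549-GFP libraries left of the vertical line. The UGT1A entries move together across libraries, highest in A549-GFP replicate 2 and with 6 of 9 at the floor in A549-TIPARP replicate 2, and SULT1A4 lies 6.38 to 9.84 times above SULT1A3, whose coding sequence is the same.

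UGT2B7, which conjugates morphine and steroid hormones, had the largest difference of all members, and 1 library set it. The gene lies on chromosome 4 at chr4:69051363-69112987 on the plus strand. Its TPM was 1.24, 16.4 and 1.11 in A549-GFP replicates 1, 2 and 3 and 1.16, 1 and 1.43 in A549-TIPARP replicates 1, 2 and 3. Only A549-GFP replicate 2 was above 2 TPM, and the other A549-GFP libraries lay within the A549-TIPARP range. The mean log2 TPM was 1.5 ± 2.20 (SD, n = 3) in A549-GFP cells and 0.24 ± 0.26 (SD, n = 3) in A549-TIPARP cells, a 2.38-fold lower level that became a difference of 0.02 without that library. The limma estimate was -0.99 with a standard error of 0.71 and a 95% interval of -2.62 to 0.64 (limma adjusted p = 0.994). UGT2B15 was at 4.87 TPM in A549-GFP replicate 2 and 1.09 in A549-TIPARP replicate 3, and UGT2B10, UGT2B11 and UGT2B28 were at 1.44, 1.33 and 1.05 TPM in A549-GFP replicate 2, all of them at the floor in the remaining libraries. The summed TPM of those UGT members that were above the floor in a library was 24.4, 61.2 and 13.5 in the A549-GFP replicates and 13.6, 3.78 and 24.1 in the A549-TIPARP replicates, which overlap at a difference of -1.34. That difference was -0.76 without A549-GFP replicate 2 and -0.59 without A549-TIPARP replicate 2. With entries at the floor counted as 1 TPM the sums were 28.4, 61.2 and 17.5 against 17.6, 14.8 and 27.1, and the difference was -0.70, or -0.22 without A549-GFP replicate 2.

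The CYP genes with a mean above 10 TPM act mainly on fatty acids and vitamins. CYP2S1, an epithelial cytochrome that acts on fatty acid endoperoxides and retinoids, lies on chromosome 19 at chr19:41193210-41207539 on the plus strand. Its TPM was 79.1, 149 and 91.7 in A549-GFP replicates 1, 2 and 3 and 61.0, 72.5 and 76.4 in A549-TIPARP replicates 1, 2 and 3. All A549-TIPARP libraries were below all A549-GFP libraries, by the narrowest gap between A549-TIPARP replicate 3 and A549-GFP replicate 1. The difference was -0.56, and on the limma scale -0.55 with a standard error of 0.25 and a 95% interval of -1.12 to 0.01 (limma adjusted p = 0.994). With A549-GFP replicate 2, the highest library, left out, it was -0.29.

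CYP4F11, which hydroxylates long-chain fatty acids and vitamin K, lies on chromosome 19 at chr19:15912367-15934867 on the minus strand. It was at 72.3, 65.0 and 60.5 TPM in the A549-GFP replicates and 53.3, 53.1 and 46.0 in the A549-TIPARP replicates. The lines did not overlap and A549-GFP replicate 2 lay between the other A549-GFP libraries, so the difference of -0.38 was the same without it. The limma estimate was -0.37 with a standard error of 0.17 and a 95% interval of -0.76 to 0.02 (limma adjusted p = 0.994). CYP4F3, a leukotriene hydroxylase of the same gene cluster, was at 29.0, 37.9 and 16.7 TPM in the A549-GFP replicates and 17.8, 20.0 and 19.8 in the A549-TIPARP replicates. It overlapped through A549-GFP replicate 3, which was the lowest of all 6 libraries, with a difference of -0.46 and of -0.20 without A549-GFP replicate 2. CYP4F12 ranged from 2.61 to 10.4 TPM with a difference of 0.51, and CYP4V2 from 2.63 to 8.73 with 0.03. Both were highest in A549-GFP replicate 2, and their differences were 1.09 and 0.57 without it. CYP4F2 was above the floor in A549-TIPARP replicate 3 alone, at 1.08 TPM.

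CYP2U1, a fatty acid hydroxylase on chromosome 4, was at 1.27, 1.34 and 1 TPM in the A549-GFP replicates and 2.18, 1.41 and 2.78 in the A549-TIPARP replicates. The lines did not overlap, though A549-TIPARP replicate 2 lay just above A549-GFP replicate 2. The difference was 0.77 and without A549-GFP replicate 2 it was 0.86. On the limma scale it was 0.48 with a standard error of 0.24 and a 95% interval of -0.06 to 1.02 (limma adjusted p = 0.994). All of these values were under 3 TPM, close to the floor.

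CYP39A1, an oxysterol hydroxylase of bile acid synthesis, was the only member of the sterol and bile acid group above the floor. It lies on chromosome 6 at chr6:46549580-46652830 on the minus strand. Its TPM was 1.93, 6.30 and 1.62 in A549-GFP replicates 1, 2 and 3 and 1.35, 1.53 and 1.06 in A549-TIPARP replicates 1, 2 and 3. The lines did not overlap, by a narrow gap between A549-TIPARP replicate 2 and A549-GFP replicate 3, and A549-GFP replicate 2 was far above the rest. The mean log2 TPM was 1.43 ± 1.07 (SD, n = 3) in A549-GFP cells and 0.38 ± 0.27 (SD, n = 3) in A549-TIPARP cells, a 2.08-fold lower level. Without A549-GFP replicate 2 the difference was -0.45, no longer past 2-fold. The limma estimate was -0.73 with a standard error of 0.38 and a 95% interval of -1.60 to 0.13 (limma adjusted p = 0.994).

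The vitamin A and D group showed the same dependence on 1 library. CYP26B1, which clears retinoic acid, ranged from 9.82 to 35.7 TPM with a difference of -0.67, CYP27B1, which activates vitamin D, from 1.23 to 5.91 with -0.84, and CYP2R1, which carries out the step before it, from 14.0 to 33.3 with -0.25. All 3 were highest in A549-GFP replicate 2, and without it their differences were -0.20, -0.29 and 0.12, so that of CYP2R1 changed sign. CYP20A1, whose substrate is unknown, ranged from 2.87 to 7.10 TPM with a difference of -0.15 that turned to 0.23 without A549-GFP replicate 2, and CYP27C1 was above the floor in A549-TIPARP replicate 3 alone, at 1.24 TPM.

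The drug-metabolising CYP genes were taken to include CYP2S1, described above. In this group CYP3A5 was at 2.43, 28.7 and 2.70 TPM in A549-GFP replicates 1, 2 and 3. It was at 6.21, 5.69 and 8.29 TPM in A549-TIPARP replicates 1, 2 and 3. All A549-TIPARP libraries lay above A549-GFP replicates 1 and 3 and below replicate 2, so the difference of 0.21 became 1.37 without that library. CYP2D6 ranged from 1.38 to 3.03 TPM with a difference of 0.58 (0.85 without A549-GFP replicate 2), and 43.0% of its 50-base stretches were shared with pseudogenes such as CYP2D7. CYP2B6 was above the floor in 2 libraries, at 2.33 TPM in A549-GFP replicate 2 and 1.29 in A549-TIPARP replicate 3, and CYP3A7 in A549-GFP replicate 2 alone, at 1.17 TPM. The summed TPM of the CYP members was 226, 395 and 216 in the A549-GFP replicates and 187, 203 and 208 in the A549-TIPARP replicates, without overlap and with a difference of -0.43, which was -0.15 without A549-GFP replicate 2.

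A549-GFP replicate 2 was the highest of the 6 libraries for 23 of the 39 tested members, against 52.0% of all tested genes. It was highest for 11 of 14 CYP genes, 11 of 11 UGT genes, 1 of 9 GST genes and 0 of 5 SULT genes. UGT1A3, UGT1A4, UGT1A8, UGT1A10, UGT2B7, UGT2B15, CYP2B6 and CYP39A1 passed the limit for testing through this library alone. For them being highest in it was fixed in advance, so these counts describe the tested genes and support nothing further. The median excess of this library over the mean of A549-GFP replicates 1 and 3 was 0.83 on the log2 scale for the tested members and 0.38 for all tested genes. With this library left out, CYP3A5 and CYP4F12 were past 2-fold higher in A549-TIPARP cells, at 1.37 and 1.09, which is 2 of 39 against 2.91% of all tested genes. None of the 39 was past 2-fold lower then, against 0.296% of all tested genes. The median of the tested members was 0.06 beside 0.05 for all tested genes, with 23 higher and 16 lower. The 2-fold lower calls thus needed A549-GFP replicate 2. SULT2B1, GSTZ1, CYP2U1 and CYP4F11 had differences of 0.69, 0.39, 0.86 and -0.38 without it.

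**Figure D4:**
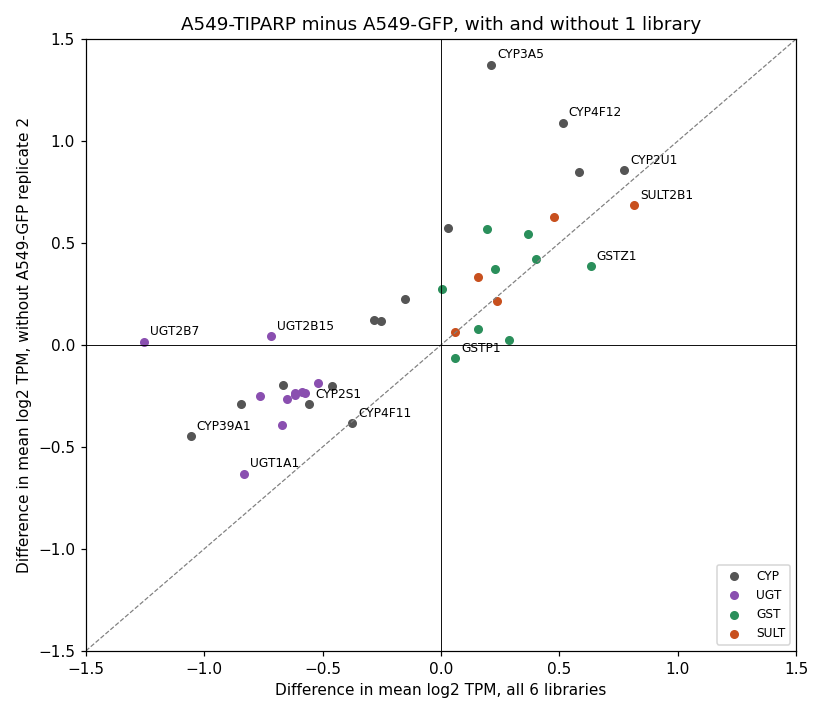
Difference in mean log2 TPM, A549-TIPARP minus A549-GFP, of the 39 tested members with all 6 libraries (horizontal axis) and without A549-GFP replicate 2 (vertical axis), colored by family, with equal values on the dashed diagonal. UGT2B7 moves from -1.25 to 0.02 and CYP3A5 from 0.21 to 1.37, while CYP4F11 stays at -0.38.

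The genes that supply these enzymes or regulate them were counted as a list of 37, of which the receptors NR1I2 and NR1I3, the main drug-sensing receptors of liver, were at the floor in every library. None of the other 35 was past 2-fold, none had a limma p under 0.05 before or after adjustment, and the mean in A549-TIPARP cells was higher for 8 and lower for 27, where 59.9% of all tested genes were lower. Without A549-GFP replicate 2, 15 were higher and 20 lower, where 42.6% of all tested genes were lower. The median difference of the 35 was -0.14, and -0.04 without that library. All 6 genes of glutathione supply, all 3 microsomal GST genes and all 3 genes of UDP-glucuronic acid supply had a lower mean, with differences from -0.61 to -0.0049, from -0.26 to -0.14 and from -0.38 to -0.09. Without A549-GFP replicate 2 the mean was lower for 4 of the 6, and for 3 of 3 in both other groups, and the -0.61, of the cystine transporter gene SLC7A11, became -0.20. Of the genes of sulfate donor supply 3 of 5 had a higher mean, as did 1 of 2 epoxide hydrolase genes, 1 of 6 electron donor genes and 3 of 10 tested receptor genes. Lower means in these groups numbered 2, 1, 5 and 7, in that order, and 1, 1, 2 and 6 without A549-GFP replicate 2. Most electron donor genes thus had a higher mean without that library. Genes of the list whose lines did not overlap included the following, named after their values were seen. CYB5A and FDX1, which pass electrons to cytochromes P450, and NR1H4, a bile acid receptor, were lower in all A549-TIPARP libraries, with differences of -0.21, -0.44 and -0.73, the last of which was -0.42 without A549-GFP replicate 2. PAPSS1, which makes the sulfate donor used by SULT enzymes, was higher in all of them, at 32.9, 35.7 and 29.3 TPM against 28.2, 20.5 and 23.9 in A549-GFP replicates 1, 2 and 3, a difference of 0.44.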

How the data were processed

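The authors sent RNA to a service for stranded mRNA libraries and sequencing from both ends, used Strand NGS to align the reads (hg38) and deposited log2 TPM values for each gene, 1 table per library. The software version, the annotation release and the rule for reads with several matching genes are not given in the sources used here. Line and replicate number were read from each title. Values were turned back to TPM where TPM is printed. Where TPM exceeded 2 in any of the 6 libraries, a gene was tested with limma 3.58.1 (R 4.3.3) on log2(TPM + 1) with a variance trend, 6 libraries, no block and Benjamini-Hochberg adjustment. limma was tested on simulated data. No counts were used, so no count test was run.

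Same-numbered libraries deviated from their line means with r = 0.415, -0.486 and -0.358, so the numbers were not taken to pair them. Every member past 2-fold, with an unadjusted p under 0.05, without overlap between the lines or among the 10 with the highest mean TPM is given library by library, with UGT2B7 and CYP39A1. UGT1A1, UGT1A7 and CYP3A5 are also given so, chosen after their values were seen, and other members mainly by range. The members and gene lists were chosen with earlier results of these data known. Gene models and transcripts are from GENCODE 44, matched by symbol for 46 of 46 members, and promoters from RefSeq (GRCh38.p14). Shared sequence was counted as identical stretches of 50 bases in another gene's transcripts.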

Additional observations from a re-analysis of the deposited data

How the results depend on the processing

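No member had a limma adjusted p under 0.05 under any of the alternatives, which changed the pseudocount, the filter, the scaling, the limma model, the block or the libraries used. Of the 14 members that the rule names library by library, 10 kept the sign of their difference in the alternatives run for them (1 alone for GSTM3), the exceptions being GSTK1, GSTP1, SULT1A4 and UGT2B7. UGT2B7 turned to 0.0162 without A549-GFP replicate 2. The 2 members past 2-fold lower became 0 with a pseudocount of 1 (0.152% of all tested genes) and 1 (UGT2B7) after median-ratio rescaling (0.288%). They also became 0 with TPM above 2 in at least 3 libraries (0.372%), a filter that kept 26 members and removed both UGT2B7 and CYP39A1. At 1.5-fold, 12 members were lower (3.02% of all tested genes) and 3 higher (5.7%). The 2 members with an unadjusted p under 0.05 became 6 with every gene above the floor in at least 1 library tested (entries at the floor in all libraries could not be fitted; 4.46% of genes) and 5 after rescaling (5.95% of genes), which lost GSTZ1. With 1 library left out in turn, 0 to 2 members were past 2-fold higher, 0 to 7 lower, and 0 to 7 had an unadjusted p under 0.05. The most lower (7, against 1.52% of all tested genes) came without A549-GFP replicate 3, followed by 4 without A549-GFP replicate 1 (1.16%) or A549-TIPARP replicate 3 (0.781%) and 3 without A549-TIPARP replicate 2 (0.448%). Unadjusted p under 0.05 numbered 7 without A549-GFP replicate 2 (against 10.5% of all tested genes) and 7 without A549-GFP replicate 3 (8.23%), but 1 without A549-TIPARP replicate 1 (1.92%) and 0 without A549-TIPARP replicate 3 (2.42%). SULT2B1 lost its unadjusted p without A549-GFP replicate 2 or A549-TIPARP replicate 3, and GSTZ1 without A549-GFP replicate 1 or any 1 A549-TIPARP library. The median difference of the tested members then ran from -0.37 to 0.06, and the summed TPM differences from -0.59 to -0.15 (CYP), -1.93 to -0.59 (UGT), -0.03 to 0.19 (GST) and 0.32 to 0.63 (SULT). Counting floor entries as 1 TPM in these sums, an alternative chosen after seeing the data, gave -0.43, -0.70, 0.08 and 0.47 for the 4 families in that order. The cause of these changes was not tested. With the replicate block, SULT2B1 and GSTZ1 were still the 2 members with an unadjusted p under 0.05 (3.14% of all tested genes), and 0 had an adjusted p under 0.05. TIPARP kept its difference of 4.11 with the block and with every gene above the floor tested, at adjusted p = 0.513 and 0.0965, and ran from 3.69 to 4.50 with 1 library left out. Its limma adjusted p was then 0.0331 without A549-GFP replicate 2 and between 0.0526 and 0.192 without any 1 of the other 5 libraries. The depth of the libraries is unknown, so counting error could not be given, and levels near 1 TPM are limited by the floor. Count tests were not run, since the values are TPM.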

Other observations

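A total of 5 pseudogenes and readthrough entries related to the enzymes, outside the symbol rule, were looked up after the values were seen. Of these, CYP4F35P and CYP4F29P were highest in A549-GFP replicate 2 by a wide gap. SLX1A-SULT1A3 was at 3.04 TPM in that library and 2.27 to 3.21 elsewhere, and SLX1B-SULT1A4 at 43.6 TPM there and 33.4 to 41.0 elsewhere. CYP4F35P was at 5.37, 31.4 and 6.44 TPM in replicates 1, 2 and 3 of A549-GFP and at 5.92, 6.76 and 9.01 in A549-TIPARP replicates 1, 2 and 3. CYP4F29P was at 1.15, 12.6 and 2.32 TPM in A549-GFP cells, in the same order, and at 2.12, 1.63 and 2.96 in the A549-TIPARP replicates. CYP2B7P, a pseudogene that shares sequence with CYP2B6, was above the floor in A549-GFP replicate 2 alone, at 1.81 TPM. CD68, a leukocyte marker that many cell lines also express, was at 68.1 TPM in A549-GFP replicate 2 and between 25.0 and 36.0 TPM in the other 5 libraries.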
